A study of Mus musculus with 14 samples.

Results

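The 7 genes described here encode the protamines (Prm1, Prm2, Prm3), the transition proteins (Tnp1, Tnp2), the testis bromodomain protein BRDT (Brdt) and the chromatin remodeller CHD5 (Chd5). They were chosen by symbol from the deposited gene counts, which held 32667 genes for spermatogonia and 36888 for spermatocytes. The spermatocyte table held a row for 7 of the 7 genes and the spermatogonia table for 5. Prm1 and Prm3 had no row in the latter, where every listed row has a total of at least 2 counts. Polyadenylated RNA was measured by RNA sequencing in 14 libraries of mouse germ cells sorted from testes. Spermatogonia (Spg), the cells before meiosis, came from P14 testes and were sorted as live, EpCAM-positive and β2-microglobulin-negative cells (3 KO and 3 WT libraries). Spermatocytes (Spc), the cells in meiosis, came from mice past P20 and were sorted by DNA content with Hoechst dye (4 KO and 4 WT libraries). KO stands for Dnmt3CKO/KO, a homozygous knockout of the gene for the DNA methyltransferase DNMT3C, and WT for wild type. Both genotypes were littermates on a C57Bl6/J background, and the part of the gene that the allele lacks is not given in the sources used here. The labels do not say that the libraries of a group came from separate animals, so p-values measure the spread between these libraries. The 2 stages differ in age, gate and sort, which cannot be told apart from stage.

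In the last phase of sperm formation the nucleus of the round spermatid is repacked. Histones are acetylated and removed, transition proteins take their place for a short time, and protamines, small arginine-rich proteins, then bind the DNA and compact it. BRDT binds acetylated histone H4 through its bromodomains and acts from meiotic cells onward, and CHD5 is a helicase required for the exchange of histones. Protamine and transition protein genes are transcribed in haploid cells after meiosis, and their RNAs are stored before translation.

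The total count per library ran from 40555726 to 49332778 in spermatogonia and from 44883293 to 53323651 in spermatocytes. Levels are given as CPM, counts put on a common library size by TMM scaling, and as mean ± SD over libraries. Spermatocyte replicates 1 and 4 resembled each other more than other pairs did, with a chi-square per degree of freedom over gene counts of 10.98 in KO and 15.3 in WT, against at least 113 in the other pairs of spermatocyte libraries. They still differed beyond sampling noise, but this does not show that they came from separate animals. The paper's figure legends describe fewer biological replicates of spermatocytes than the libraries per genotype used here. Whether replicates 1 and 4 share an animal was not tested. Spermatocyte SDs, SEs and p-values count replicates 1 and 4 separately, and results that change when these replicates are summed are marked. Dnmt3c RNA was low in each library. Spermatogonia had 58 to 116 counts (KO) and 53 to 89 (WT), and spermatocytes 52 to 57 (KO) and 11 to 28 (WT). These counts cover the whole gene and were not lower in the libraries labelled KO, so they do not check the genotype.

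Prm1, Prm2, Prm3 and Tnp2 lie side by side on chromosome 16, all on the minus strand, within 17904 bases (chr16:10787936-10805839, GRCm38). Read in the direction of transcription the order is Prm1 (chr16:10796326-10805839), Prm2 (chr16:10791380-10796134), Prm3 (chr16:10790505-10790914) and Tnp2 (chr16:10787936-10788660). Prm3 has 1 exon, and Tnp2 and Tnp1 have 2. Tnp1 lies alone on chromosome 1 (chr1:73015074-73015909, minus strand). Brdt (chr5:107331159-107387058) and Chd5 (chr4:152338651-152390194), both on the plus strand, are long genes with up to 19 and 42 exons per transcript. Gm46563, annotated as an antisense gene on the plus strand, overlaps the longer Prm1 gene model.

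**Figure D1:**
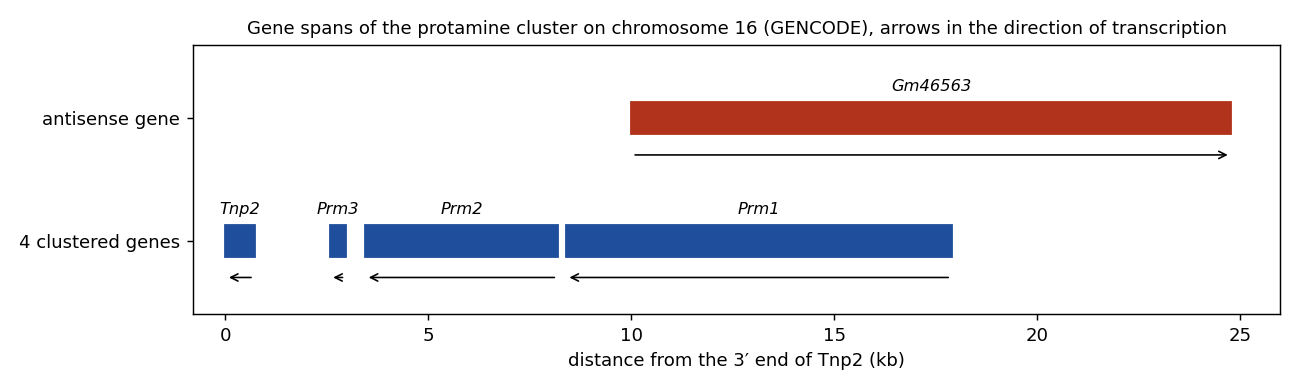
Spans of the 4 clustered genes and of the antisense gene Gm46563 along chromosome 16, drawn to scale as distance in kb from the 3′ end of Tnp2. The 4 genes point the same way, and Gm46563 runs the opposite way across the upstream part of the Prm1 gene model.

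The 150 bases before the annotated start of the 5 protamine and transition protein genes are shown because these genes had the most similar profiles across libraries (below) and because CREM, the transcription factor known to switch on several of them, binds cAMP response elements (CRE). The sequences are from RefSeq (GRCm38.p6), on the gene strand, 5′ to 3′. Capitals mark the gapped CRE letters TGANNTCA (searched on both strands) or the TATA form TATATA (gene strand).
Prm1: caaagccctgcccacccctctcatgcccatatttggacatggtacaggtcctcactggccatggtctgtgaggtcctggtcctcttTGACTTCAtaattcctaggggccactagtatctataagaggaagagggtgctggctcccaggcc
Prm2: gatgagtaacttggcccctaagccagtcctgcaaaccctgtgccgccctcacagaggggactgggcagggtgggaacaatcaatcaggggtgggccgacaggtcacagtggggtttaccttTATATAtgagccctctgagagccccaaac
Prm3: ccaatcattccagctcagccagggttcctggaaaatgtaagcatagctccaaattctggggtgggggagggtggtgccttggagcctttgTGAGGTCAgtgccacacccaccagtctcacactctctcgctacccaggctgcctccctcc
Tnp1: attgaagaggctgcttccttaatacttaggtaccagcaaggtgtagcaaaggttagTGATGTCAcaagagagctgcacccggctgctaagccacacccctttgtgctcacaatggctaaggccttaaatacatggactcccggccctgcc
Tnp2: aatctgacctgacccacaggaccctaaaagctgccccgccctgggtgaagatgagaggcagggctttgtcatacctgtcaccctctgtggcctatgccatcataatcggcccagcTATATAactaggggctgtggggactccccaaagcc
The windows lie at chr16:10796824-10796973 (Prm1), chr16:10792106-10792255 (Prm2), chr16:10790915-10791064 (Prm3), chr1:73015900-73016049 (Tnp1) and chr16:10788656-10788805 (Tnp2), all on the minus strand. Those of Prm1 and Prm2 lie inside the gene spans given above, because the RefSeq starts are downstream of the upstream ends of those spans. The gapped CRE letters stood at positions -64 to -57 from the start in Prm1, at -60 to -53 in Prm3 and at -94 to -87 in Tnp1. Prm2 and Tnp2 had TATATA instead, at -29 to -24 and at -35 to -30. Of all 27025 RefSeq promoters of the same length, 8.48% held the gapped CRE letters and 3.21% held TATATA, the latter searched for after the sequences had been seen. The full CRE (TGACGTCA, in 389 of these promoters), the box TATAAA (5.26%) and the NRF1 motif (0.655%) had no match in the 7 windows, and the short CRE core TGACG (13.5%) matched only that of Chd5, at -32 to -28 on the opposite strand. TGACG is part of the full CRE. A match describes letters and is no evidence of binding, which was not measured here.

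In spermatocytes the 3 protamine RNAs were detected in each WT library, at widely varying levels, and were close to absent in KO. Prm1, the protamine found in sperm of all mammals, had 3155, 346, 12381 and 2318 counts in WT replicates 1 to 4 and 0, 0, 104 and 3 in KO. The groups did not overlap, WT replicate 3 was the highest and WT replicate 2 the lowest of its group, and KO replicate 3 held nearly all KO counts. Prm2, made as a precursor that is cut in the spermatid, had 4307, 471, 19885 and 3226 counts in WT and 0, 0, 79 and 0 in KO. Prm3, an acidic protein of the cytoplasm despite its name, had 285, 49, 887 and 260 counts in WT and 0, 0, 9 and 0 in KO. The same libraries were highest and lowest for each of the 3 genes. Mean levels were 104.5 ± 103 CPM (SD, n = 4) in WT against 0.451 ± 0.866 in KO for Prm1, 158 ± 169 against 0.332 ± 0.664 for Prm2, and 8.78 ± 6.89 against 0.0378 ± 0.0757 for Prm3.

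The log2 fold change of KO over WT, by edgeR's quasi-likelihood test with Benjamini-Hochberg adjustment over all genes and TE subfamilies, was -7.85 ± 1.68 (SE, adjusted p = 0.0021) for Prm1, -8.88 ± 1.74 (adjusted p = 0.00129) for Prm2 and -7.76 ± 1.31 (adjusted p = 0.000525) for Prm3. KO replicate 3 set these sizes. Without it the KO libraries held at most 3 counts of Prm1, Prm2 or Prm3 each, and the WT mean was at least 2039-fold higher for Prm1, 3087-fold for Prm2 and 171-fold for Prm3, computed against 3 counts per KO library. WT replicate 3 carried much of these bounds, and without it too they were at least 1090-fold, 1500-fold and 112-fold.

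The transition proteins followed the same pattern, with Tnp1 the only one of these 5 genes detected in each of the 8 spermatocyte libraries. Tnp1, the more abundant transition protein of mouse spermatids, had 2150, 254, 7519 and 1644 counts in WT and 7, 13, 89 and 7 in KO. Tnp2, a zinc-binding protein encoded beside the protamines, had 4092, 582, 16033 and 3179 counts in WT and 0, 2, 51 and 0 in KO. Again no KO library reached the lowest WT library, and replicate 3 was the highest in both genotypes. Mean levels were 67.2 ± 61.2 CPM in WT against 0.487 ± 0.674 in KO for Tnp1 and 138 ± 132 against 0.222 ± 0.424 for Tnp2. Tnp1 fell by a log2 fold change of -7.10 ± 1.21 (edgeR adjusted p = 0.000553) and Tnp2 by -9.25 ± 1.54 (adjusted p = 0.000489). Without KO replicate 3 the value for Tnp1 was -8.76, and Tnp2 was at least 2684-fold higher in WT than the limit of 3 counts per library (1471-fold without WT replicate 3 too).

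Brdt and Chd5, in contrast, were well detected in KO spermatocytes and differed from WT by a few fold. Brdt had 15319, 8148, 15919 and 17619 counts in KO and 22173, 20738, 21597 and 20154 in WT, with KO replicate 2 the lowest of the 8 libraries. The level was 246 ± 82.6 CPM in KO and 549 ± 88.1 in WT, without overlap, a 2.23-fold difference (log2 fold change -1.16 ± 0.28, edgeR adjusted p = 0.00424). Chd5 had 512, 1382, 1030 and 549 counts in KO and 2469, 1172, 5567 and 2139 in WT. The raw counts of Chd5 overlapped, since KO replicate 2 exceeded WT replicate 2, while the scaled levels, 14.5 ± 6.04 CPM in KO and 69.2 ± 34.0 in WT, did not. The difference was 4.78-fold (log2 fold change -2.26 ± 0.43, adjusted p = 0.00115).

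Both calls depended on how the libraries were scaled. Scaling by library totals moved the median over all genes from 0.107 to 0.794 on the log2 scale, and gave -0.46 for Brdt (adjusted p = 0.0872) and -1.59 for Chd5 (adjusted p = 0.0178), neither past the threshold. Relative to that median the values were -1.25 and -2.38, against -1.27 and -2.36 with TMM scaling. Brdt also missed the threshold without KO replicate 1 (adjusted p = 0.0106), without WT replicate 1 (0.0105), without WT replicate 4 (0.0104) and with replicates 1 and 4 summed (0.0194), while its log2 fold change stayed between -1.31 and -0.94 when single libraries were left out.

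All 7 genes were thus called lower in KO spermatocytes at an adjusted p under 0.01, against a background of 30.7% of the 21919 genes tested that were called lower, 28% higher and 58.8% in either direction. Their scaled levels did not overlap between genotypes, which was true of 68.4% of all genes. The 5 protamine and transition protein genes passed the filter on low counts only through the WT libraries, where they are high. That selection favours a difference, so their number supports nothing. The median log2 fold change over the 7 was -7.76, beside 0.107 over all genes tested.

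**Figure D2:**
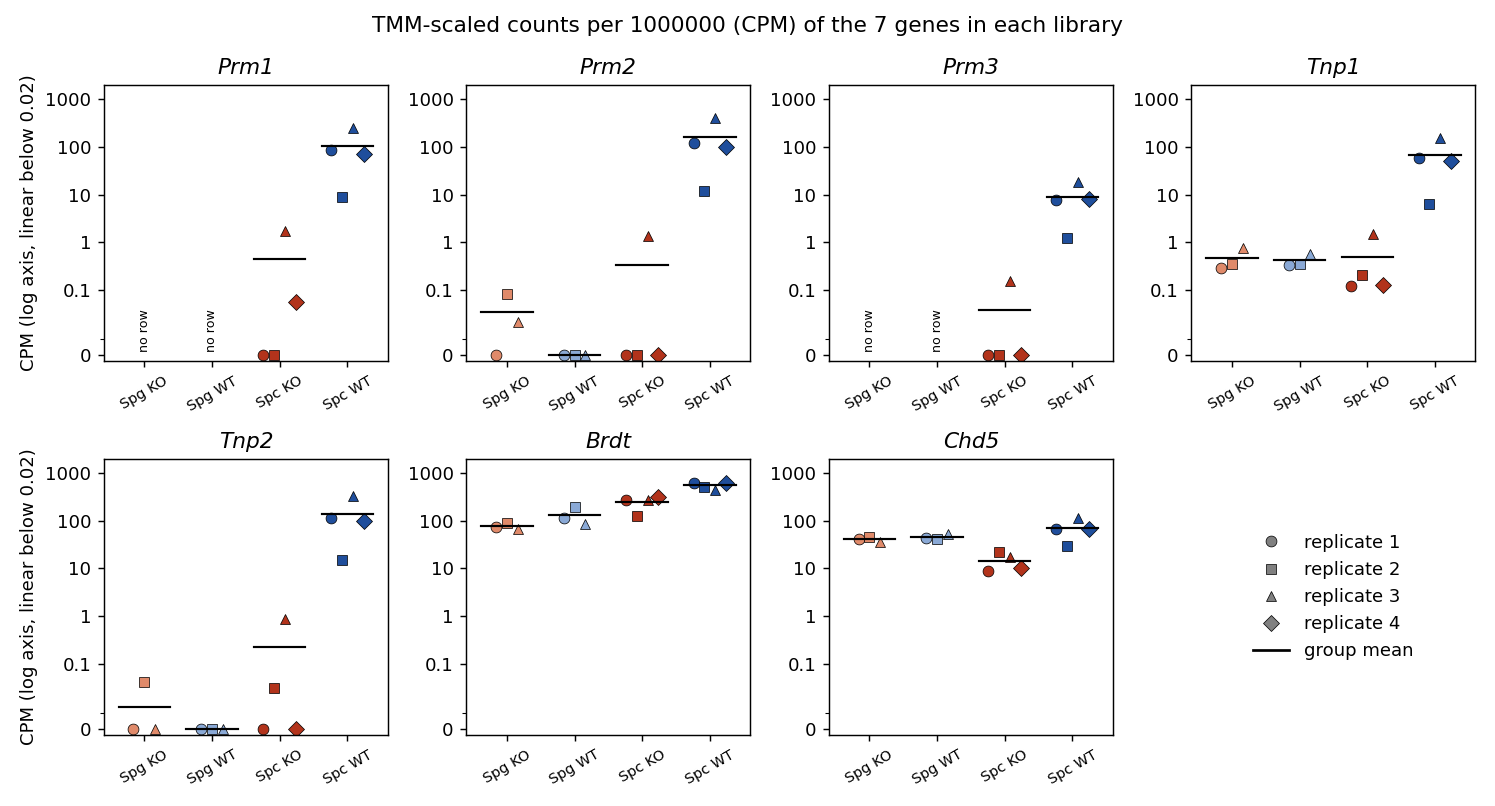
Level of each of the 7 genes in each of the 14 libraries, in CPM on a log axis that is linear below 0.02, with the symbol giving the replicate and the line the group mean; "no row" marks genes absent from the spermatogonia table. The protamine and transition protein genes sit above 1 CPM in each WT spermatocyte library and below 1 CPM elsewhere apart from KO spermatocyte replicate 3, while Brdt and Chd5 are present in each library.

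The 5 protamine and transition protein genes rose and fell together from library to library. Across the 4 WT spermatocyte libraries their levels varied by 28.8-fold for Prm1, 34.0-fold for Prm2, 14.6-fold for Prm3, 23.8-fold for Tnp1 and 22.2-fold for Tnp2, against 1.438-fold for Brdt and 3.82-fold for Chd5. Together the 5 genes made up 0.0262% of the counts of WT replicate 1 (95% Wilson interval 0.0258 to 0.0267), 0.00347% of replicate 2 (0.00331 to 0.00364), 0.115% of replicate 3 (0.114 to 0.116) and 0.0223% of replicate 4 (0.0219 to 0.0227). These intervals cover counting error only and do not overlap each other. In KO the share was highest in replicate 3, at 0.00074% (0.000664 to 0.000824), and at most 3.3e-05% in the other libraries.

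Relative to Prm1 the composition was steadier. Per Prm1 count the WT libraries held 1.36 to 1.61 Prm2 counts, 1.29 to 1.68 Tnp2 counts, 0.607 to 0.734 Tnp1 counts and 0.0716 to 0.142 Prm3 counts. Prm3 per Prm1 was highest in WT replicate 2 and lowest in WT replicate 3, the libraries with the lowest and the highest Prm1. KO replicate 3, the only KO library with more than 3 Prm1 counts, held 0.76 Prm2, 0.49 Tnp2, 0.856 Tnp1 and 0.0865 Prm3 counts per Prm1 count. Of its Prm1 and Tnp2 counts together, 32.9% were from Tnp2 (95% Wilson interval 26.0 to 40.6), against 56.4% to 62.7% in the WT libraries. For Prm2 the share was 43.2% (36.2 to 50.4), against 57.6% to 61.6% in WT. With 1 such KO library, these differences have no replicate check.

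**Figure D3:**
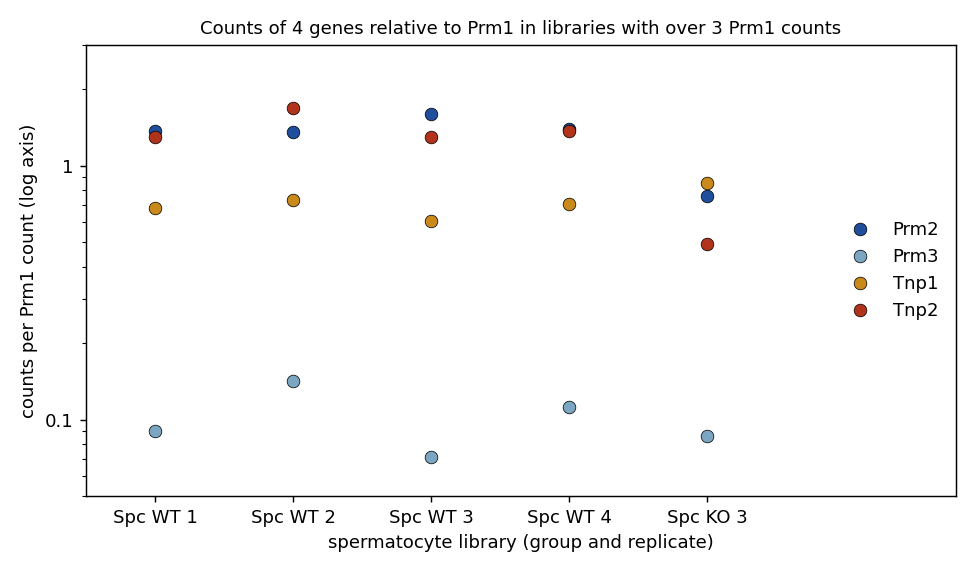
Counts of Prm2, Prm3, Tnp1 and Tnp2 per Prm1 count (log axis) in the 4 WT spermatocyte libraries and in KO spermatocyte replicate 3. In WT, Prm2 and Tnp2 lie above 1, Tnp1 between 0.607 and 0.734 and Prm3 near 0.1, whereas in the KO library Prm2 and Tnp2 lie below Tnp1.

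As a description, over the 8 spermatocyte libraries Pearson's r of log2(CPM + 0.5) between these 5 genes was 0.988 to 0.999. Chd5 had r of 0.957 to 0.965 with them and Brdt 0.748 to 0.791. These points share the genotype difference. The genes outside the 7 with the profile nearest to each, among 14691 genes with a mean count of at least 100 over the 14 libraries, were BC048671 for Prm2 (r = 0.9952), Gm9999 for Tnp1 (0.9937), Gapdhs for Tnp2 (0.9971), Ptprq for Brdt (0.9954) and Plb1 for Chd5 (0.9724). Kif17 was the second nearest to Chd5 (0.9565). For Prm1 and Prm3, compared over the 8 spermatocyte libraries and 14906 genes, they were Mdm4-ps (0.993) and Fam166a (0.9992).

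Markers of other cell types moved with genotype beside these genes. All 10 spermatid markers, a list without the 7 genes, were called lower in KO spermatocytes, and so were the 6 pachytene markers, beside the 30.7% of all genes called lower. Of these, 5 spermatid markers (Acrv1, Catsper3, Odf1, Akap4 and Gapdhs) and the pachytene marker Pgk2 passed the filter on low counts only through WT. That selection favours a lower level in KO, so their calls support nothing. Summed over the list, spermatid markers gave 206 to 290.0 CPM in KO and 1054 to 1594 in WT. Most of the KO sum came from Tex101, and the other 9 markers together gave 8.38 to 15.4 CPM in KO and 277 to 853 in WT. The counts of Acrv1, which encodes a protein of the acrosome, reached 8 at most in any KO library and 2461 in WT. Pachytene markers summed to 17.9 to 45.9 CPM in KO and 5106 to 10373 in WT. The libraries labelled KO spermatocytes were thus nearly without the RNAs that define late spermatocytes, and those labelled WT spermatocytes held spermatid RNAs. The methods, however, describe the sort gate as diploid DNA content, which haploid spermatids lack. The authors report a pachytene arrest in the KO, with round spermatids and some meiotic stages missing from its sort. They also report that the sorted WT spermatocytes included a later stage. In the other direction, 7 of 8 spermatogonial, 5 of 5 Leydig, 5 of 5 macrophage and 2 of 3 peritubular markers were called higher in KO spermatocytes, beside 28% of all genes. Their sums were 382 to 967 CPM against 33.4 to 229.8 in WT for spermatogonial, 46.6 to 276 against 12.4 to 24.6 for Leydig, 33.3 to 121 against 3.93 to 15.03 for macrophage and 7.36 to 118 against 2.03 to 6.96 for peritubular markers. None of the 6 Sertoli markers (231 to 806 CPM in KO, 105 to 389.7 in WT) and neither of the erythroid markers tested, Hbb-bs and Alas2 (list sum with Hba-a1 0.876 to 8.48 in KO, 1.23 to 6.27 in WT) passed the edgeR test. Of 6 early meiotic markers 2 were called higher and 1 lower, with sums of 1010 to 1934 and 1307 to 1870.2 CPM. In bulk RNA, fewer cells of a type and less RNA per cell cannot be told apart, and the part of cell makeup in the differences of the 7 genes was not tested.

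Per length of exon, the 7 genes stood in a different order in each genotype. In WT spermatocytes the levels, in CPM per kb of exon, were 248 ± 238 for Tnp2, 183 ± 180.4 for Prm1, 177 ± 189 for Prm2, 154 ± 140.0 for Tnp1, 107 ± 17.2 for Brdt, 21.4 ± 16.8 for Prm3 and 7.22 ± 3.55 for Chd5 (SD, n = 4). The SDs are mostly library-to-library variation that the protamine and transition protein genes share, so the order was also read within libraries. Tnp2 was above Prm1, Prm2 and Tnp1 in 4 of 4 WT libraries, for example at 203 against 152, 132 and 135 in replicate 1, although per length of the longest transcript Prm2 passed Tnp2 in replicate 3 (597 against 585). Brdt was above Tnp2 in replicate 2 (102 against 26.4) and below it in the other 3 libraries. Prm3 was above Chd5 in 3 of the 4 libraries. In KO spermatocytes Brdt was highest, at 48.1 ± 16.2, followed by Chd5 at 1.51 ± 0.631 and Tnp1 at 1.12 ± 1.54, and the other 4 genes lay between 0.0923 and 0.789. Brdt stood apart from the others there, at 24.9 or more in each library. Chd5 (0.938 to 2.26) also lay above Prm3 (0 to 0.369) without overlap, while Chd5 and Tnp1, its neighbour in that order, overlapped.

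In spermatogonia, protamine and transition protein RNAs were at or near the limit of detection and Brdt and Chd5 were expressed. Prm2 had 0, 4 and 1 counts in KO and 0 in each WT library, and Tnp2 had 0, 2 and 0 in KO and 0 in each WT library, too few for a test. Tnp1 had 14, 17 and 35 counts in KO and 16, 14 and 26 in WT, overlapping ranges. Brdt had 3596, 4207 and 3141 counts in KO and 5320, 7810 and 4080 in WT, with WT replicate 2 the highest. Chd5 had 2005, 2181 and 1656 counts in KO and 2054, 1630 and 2417 in WT. Levels were 0.46 ± 0.248 CPM (SD, n = 3) in KO and 0.414 ± 0.123 in WT for Tnp1, 75.6 ± 10.7 and 131 ± 55.7 for Brdt, and 40.3 ± 5.11 and 45.2 ± 5.805 for Chd5. Scaled levels of the 3 genes overlapped between genotypes, for Brdt only by KO replicate 2 (87.5 CPM) against WT replicate 3 (87.2 CPM). Brdt was lower in KO in 3 of 3 pairs of libraries with the same replicate number, at 72.5 against 112, 87.5 against 194 and 66.7 against 87.2 CPM.

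The log2 fold changes of KO over WT in spermatogonia were 0.15 ± 0.52 (SE, edgeR adjusted p = 1) for Tnp1, -0.80 ± 0.28 (adjusted p = 0.472) for Brdt and -0.16 ± 0.17 (adjusted p = 1) for Chd5. None of these 3 tested genes was called by edgeR or DESeq2, and 1 of them, Brdt, had an unadjusted p under 0.05 (0.0217). Among all 20659 genes tested 0.0436% were called (0.0387% higher and 0.00484% lower) and 12.1% had groups without overlap, and 1509 had an unadjusted p under 0.05. The replicate numbers clearly pair only the spermatogonia libraries of replicate 1. With the replicate as a block edgeR called 108 genes in place of 9, 27 higher and 81 lower in place of 8 and 1. Brdt was then at -0.72 (edgeR adjusted p = 0.103). Without WT replicate 2 the value of Brdt was -0.39. Pachytene markers moved in the same direction, at 16.7 to 20.7 CPM in KO and 83.1 to 1131 in WT spermatogonia, none of the 6 called, and their part in the value for Brdt was not tested.

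From spermatogonia to spermatocytes, WT cells gained protamine, transition protein and Brdt RNA, and KO cells gained Brdt RNA. These contrasts were fitted over the 14 libraries on genes in both tables, which leaves out Prm1 and Prm3. In WT, Tnp1 rose by a log2 fold change of 7.82 ± 1.25 (edgeR adjusted p = 0.000125) and Brdt by 2.56 ± 0.32 (adjusted p = 2.34e-05). Prm2 and Tnp2 were also called higher (adjusted p = 0.000369 and 0.000149) and, since each WT spermatogonia library had 0 counts, were at least 2102-fold and 1799-fold higher, computed on counts scaled by library totals alone against 3 counts per library. Without spermatocyte WT replicate 3 these bounds were 789.8-fold and 776-fold. Chd5, at 1.097 ± 0.396 (adjusted p = 0.0252), did not pass. It passed without spermatocyte WT replicate 2 (1.35, adjusted p = 0.0047). Under library totals Tnp1 was at 7.14 and Brdt at 1.71, both still called, and Chd5 at 0.353 (edgeR adjusted p = 0.507). That scaling moved the median over all genes from 0.0209 to -0.761. The 4 calls among 5 genes with TMM scaling stand beside 29.2% of all 24340 genes called higher, 23.3% called lower and 66% whose groups did not overlap. Prm2 and Tnp2 entered the fit over 14 libraries only through the WT spermatocyte libraries, where they are high. That selection favours a difference, so their calls support nothing.

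In KO, Brdt rose by 2.13 ± 0.31 (adjusted p = 0.00108), where 3.01% of all genes were called higher, 0.037% lower and 3.05% in either direction. This call was lost with the replicate number as a block (1.93, adjusted p = 0.0188) and when any one of the 3 KO spermatogonia libraries was left out (adjusted p up to 0.018). Chd5 was at 16.5 ± 6.93 CPM in KO spermatocytes and 34.0 ± 4.52 in KO spermatogonia on the common scale (log2 fold change -1.05 ± 0.38, adjusted p = 0.109), without overlap, as were 26.4% of all genes. Tnp1 (0.52 ± 0.96, adjusted p = 0.773), Prm2 (adjusted p = 0.313) and Tnp2 (adjusted p = 0.251) did not pass, and the signs for Tnp1 and Prm2 turned without KO spermatocyte replicate 3.

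The effect of genotype itself differed between the stages for Tnp1 and Chd5. The KO effect in spermatocytes minus that in spermatogonia was -7.30 ± 1.444 (edgeR adjusted p = 0.00175) for Tnp1 and -2.14 ± 0.55 (adjusted p = 0.00729) for Chd5, on the log2 scale, against 14.6% of all genes called lower, 11.1% higher and 25.7% in either direction. Tnp1 passed with the replicate block too (adjusted p = 0.00159). The Chd5 call was lost with the replicate block (adjusted p = 0.0179), under library totals (0.0781), with replicates 1 and 4 summed (0.019) and in 11 of the 14 fits that left out a single library, where the adjusted p ran up to 0.022. Its size changed little, at -2.13 with the block, -2.06 with the replicates summed, -2.39 to -1.80 with single libraries left out and, relative to the median over all genes, -2.35 under library totals against -2.34 with TMM. Brdt, at -0.43 ± 0.41 (adjusted p = 0.413), did not differ past the threshold, and was at 0.31 under library totals. That scaling moved the median over all genes from 0.195 to 0.899, and relative to the median Brdt was at -0.62 with TMM and -0.59 with library totals. For Prm2 (adjusted p = 0.0773) and Tnp2 (adjusted p = 0.159) the spermatogonia counts were too low for a size, and only DESeq2 called them.

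The other genes of the histone-to-protamine pathway were followed in 4 lists. Among 7 histone variants, 4 were called lower in KO spermatocytes and 3 were not called, and the median log2 fold change was -0.99, beside the 30.7% of all genes called lower. H1f7 and Hils1 passed the filter on low counts only through WT. That selection favours a difference, so their calls support nothing. The linker histone variants of the spermatid changed most. H1f7 had 216 to 3617 counts in WT and at most 5 in KO (-10.14 ± 1.18, edgeR adjusted p = 6.54e-05), and Hils1 had 294 to 3071 in WT and at most 12 in KO (-8.99 ± 1.12, adjusted p = 9.46e-05). The testis linker histone H1f6 (-1.61 ± 0.42) and the replacement histone H3.3 gene H3f3a (-0.99 ± 0.17) were called lower, whereas the other H3.3 gene, H3f3b, was at -0.77 ± 0.23 (adjusted p = 0.011) and the testis variants H2bc1 (0.44 ± 0.42) and H2ac1 (-0.64 ± 0.65) did not pass.

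Among paralogs of Brdt and Chd5, Brd3 (-1.63 ± 0.22) and Brd2 (-1.10 ± 0.22) were called lower, beside 30.7% of all genes called lower and 58.8% in either direction, whereas Chd4 (-0.67 ± 0.21, adjusted p = 0.0167) and Chd3 (-0.10 ± 0.17) did not pass.

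Among 20 chromatin factors, 10 were called lower, 1 higher and 9 not called, with a median of -0.79. The 11 calls are a share near the 58.8% of all genes called in either direction. The largest falls were those of Ccer1 (-6.00 ± 0.55), the kinase gene Tssk6 (-5.22 ± 0.67), Phf7 (-5.03 ± 0.36), which encodes a reader of H3K4 methylation with ubiquitin ligase activity, and Hspa2 (-4.31 ± 0.30), a chaperone of transition proteins. The acetyltransferase genes Kat8 (-2.74 ± 0.29) and Kat5 (-2.15 ± 0.29) and the proteasome activator gene Psme4 (-2.44 ± 0.32), which acts on acetylated histones, also fell. Top2b, a topoisomerase linked to the DNA breaks of elongating spermatids, rose (2.32 ± 0.52, adjusted p = 0.00275), a call that was lost without WT replicate 2. The ubiquitin ligase gene Rnf8 (-0.46 ± 0.29), Parp1 (-0.42 ± 0.21) and Cdyl (0.48 ± 0.44) did not pass.

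The 14 regulators of protamine and transition protein genes and of their RNAs had a median of -3.35, with 12 called lower, 1 higher and 1 not called, beside 30.7% of all genes called lower and 28% higher. Crem had 5468 to 8314 counts in WT and 774 to 1038 in KO spermatocytes (-3.50 ± 0.27, adjusted p = 6.33e-06). Fhl5, which encodes a coactivator of CREM and passed the filter only through WT, was lower (-8.14 ± 0.95), as was Kif17 (-2.46 ± 0.58), the kinesin that carries this coactivator. The RNA-binding protein genes Ybx3 (-5.68 ± 0.35) and Ybx2 (-4.95 ± 0.27), whose products store these RNAs, the poly(A) polymerase gene Papolb (-6.16 ± 0.48) and Rfx2 (-4.40 ± 0.31) fell. Taf7l, a testis-specific subunit of general transcription factor TFIID, was the exception, with 23342 to 31326 counts in KO and 290 to 3581 in WT (3.91 ± 0.66, adjusted p = 0.000531). Brwd1 (0.47 ± 0.18, adjusted p = 0.0348) did not pass. In no alternative did a list gene called in KO against WT spermatocytes change sign. Under library totals the calls of H1f6, H3f3a, Brd2, Dot1l, Epc1, Hdac1 and Kif17 were lost, and with replicates 1 and 4 summed those of H1f6, H3f3a, Brd2, Dot1l, Epc1, Hdac1, Top2b and Kif17. The replicate block lost H1f6, Dot1l and Kif17. Of the 8 fits that left out a single library, H1f6 lost its call without any one of KO replicates 1 to 4 and WT replicates 1 and 4, Dot1l without KO replicates 1, 3 and 4 and WT replicate 1, and Kif17 without KO replicates 1 and 4 and WT replicate 3.

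In spermatogonia, edgeR called none of the 43 list genes tested and DESeq2 called 2, both lower, while 11 had an unadjusted p under 0.05. Over all 20659 genes tested, DESeq2 called 514, of them 378 lower, and 1509 had an unadjusted p under 0.05 in edgeR. Of the 11 list genes, 7 were regulators, among them Ybx2 (-2.18 ± 0.59, adjusted p = 0.245), Ybx3 (-1.62 ± 0.52, adjusted p = 0.391) and Crem (-1.04 ± 0.44, adjusted p = 0.652). Hspa2 was at -2.16 ± 0.51 (adjusted p = 0.163) and H2bc1 at 1.31 ± 0.45 (adjusted p = 0.439). The median of the regulators was -0.64, beside 0.02 over all genes tested. Without WT replicate 2 the median of the regulators was -0.23 and 3 of them, not 7, had an unadjusted p under 0.05, and leaving out each other library gave medians of -0.84 to -0.53 and 3 to 10 such genes. Ybx2 was at 635 CPM in that library and at 165 and 123 in the other WT libraries, and the pachytene markers summed to 1131 CPM there and to 239 and 83.1 in the others. Their part in these values was not tested.

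**Figure D4:**
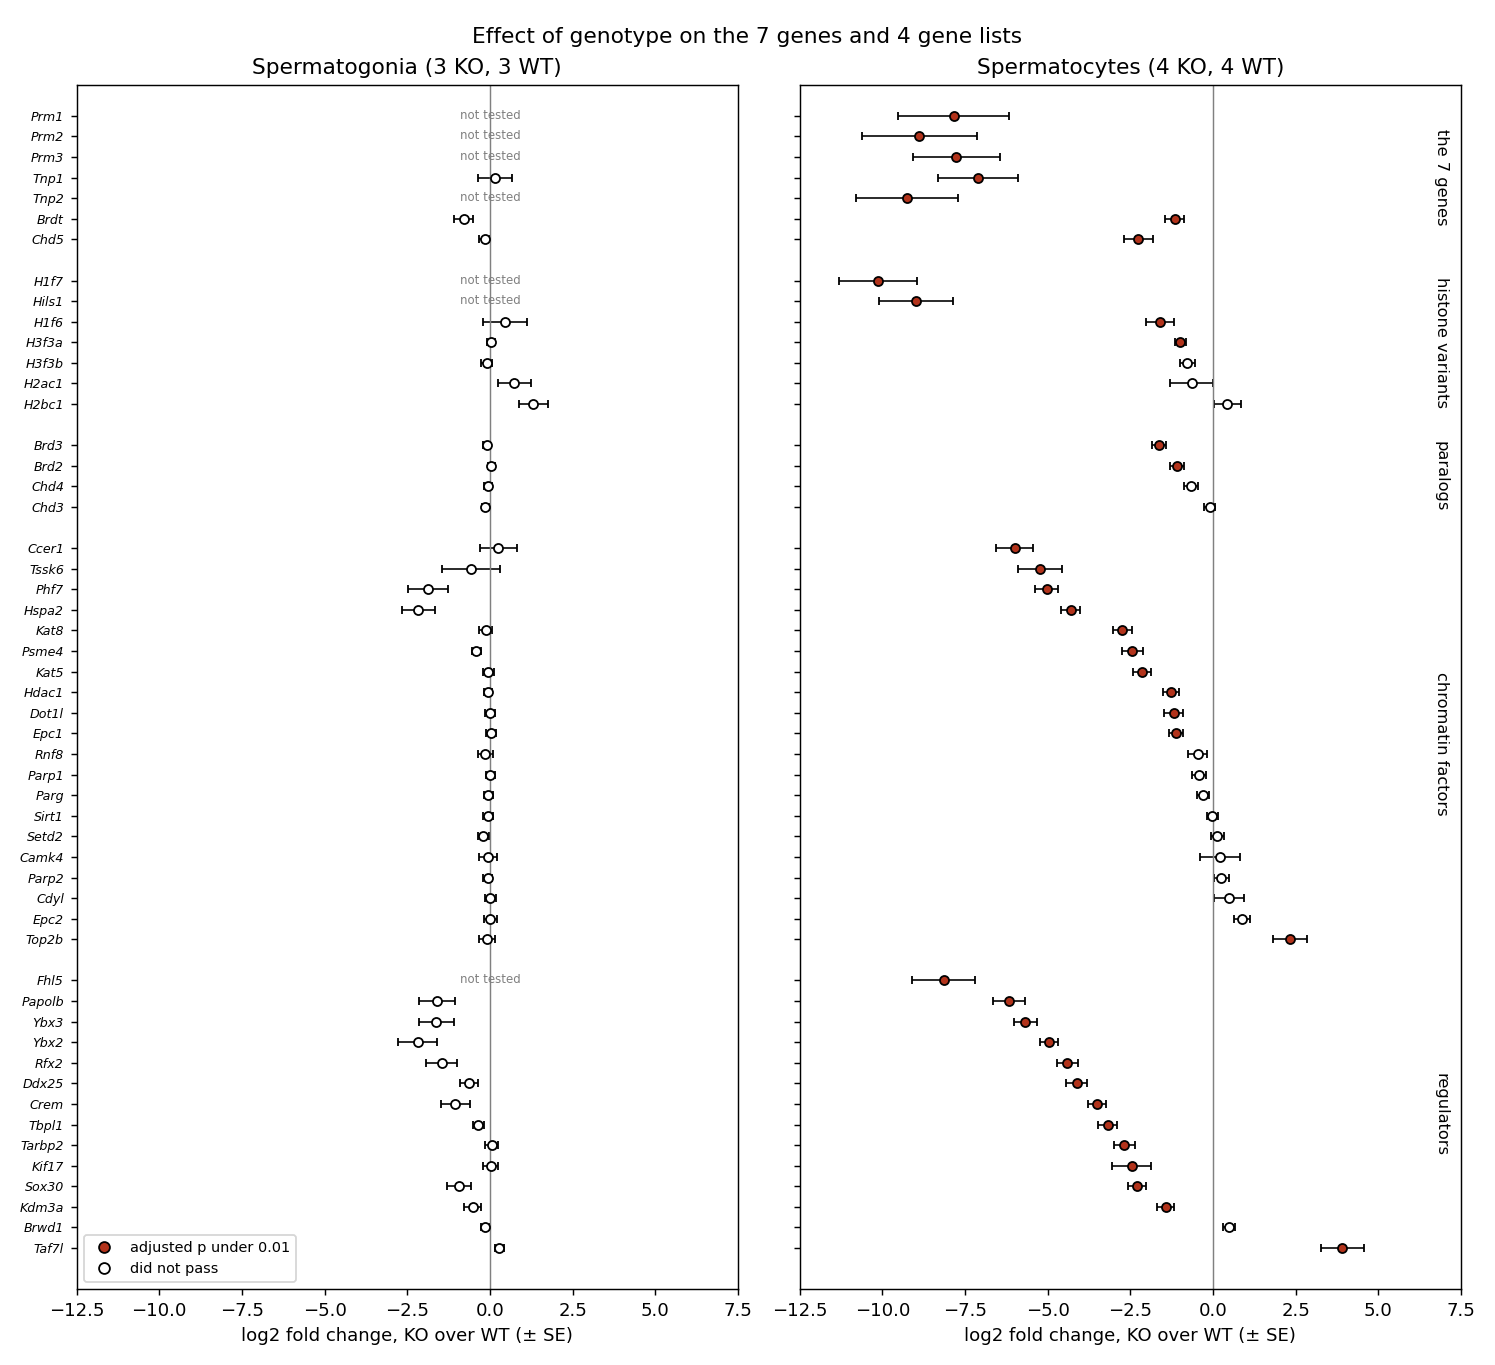
Log2 fold change of KO over WT with its SE for the 7 genes and the reported genes of the 4 lists, in spermatogonia on the left and spermatocytes on the right; filled points had an adjusted p under 0.01. In spermatocytes the 5 protamine and transition protein genes lie between -9.25 and -7.10 and Taf7l and Top2b lie to the right of 0, while no point is filled in spermatogonia.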

How the data were processed

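Polyadenylated, strand-specific RNA libraries of sorted spermatogonia (3 KO, 3 WT) and spermatocytes (4 KO, 4 WT) were sequenced. The authors trimmed reads with cutadapt 4.0, aligned them to GRCm38 with STAR 2.7.3a, keeping reads with up to 100 alignments, and deposited whole-number counts per gene and transposable element (TE) subfamily from TEtranscripts, which spreads multi-mapped reads over TEs. They also deposited TPM per TE copy from TElocal, relative to TE copies alone. The authors' DESeq2 1.44.0 columns in the same files (mean normalized signal, log2 fold change, its standard error and test score, p-values) were deposited too and were not used. A spermatogonia library per genotype that the authors excluded was not analysed here.

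Counts were scaled by TMM over genes and TEs and tested with edgeR 4.0.16 (R 4.3.3) by the quasi-likelihood test after filterByExpr, separately per stage. Stage contrasts and the difference of genotype effects used a single fit over 31111 shared genes. Adjustment was Benjamini-Hochberg over all features, with calls at an adjusted p under 0.01. The fits were tested on simulated data. DESeq2 1.42.0, other scalings and filters, and left-out libraries were alternatives. Zero counts were read against 3 counts per library. Members and lists were chosen with earlier results of these data known. The members, genes of the 4 lists, coding genes within 50000 bases of the cluster and, per member, those outside the 7 with the highest r were eligible to be named. A gene of the paralog list is not reported here. Same-numbered spermatogonia libraries deviated together from their group means (r of 0.757, 0.186 and 0.297). KO replicate 2 correlated more with WT replicate 3 (0.335) than with WT replicate 2, so only replicate 1 is clearly paired by number. Gene positions are from GENCODE, promoters from RefSeq (GRCm38.p6).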

Additional observations from a re-analysis of the deposited data

Results flagged for a closer look

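In KO spermatocytes, replicate 3 lay far from the other 3 libraries for 5 of the 7 genes, with 1.75 CPM of Prm1, 1.33 of Prm2, 0.151 of Prm3, 1.496 of Tnp1 and 0.857 of Tnp2. Its gap to the nearest library was 0.969, 1, 1, 0.941 and 0.964 of the range of the group, above the critical value of Dixon's test for 4 libraries at the 95% level. Chance flags about 1 in 20 groups, and 5 of the 16 groups tested were flagged here, all from this 1 library and from genes whose levels move together. Of the 5 spermatid markers that passed the filter on low counts only through WT, 4 were also highest in replicate 3 among the KO spermatocyte libraries. Gapdhs had 20 counts there against 0, 0 and 1 in replicates 1, 2 and 4, Odf1 21 against 3, 2 and 6, Akap4 21 against 3, 7 and 7, and Acrv1 8 against 0, 1 and 0. The other one, Catsper3, was lowest there, with 4 counts against 7, 15 and 8. Among the remaining spermatid markers, Tssk1 and, narrowly, Spag16 (404 counts against 370 in replicate 4) were highest in replicate 3. Spaca1 was highest in replicate 4, and Izumo1 and Tex101 were highest in replicate 2.

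The effect of genotype differed between spermatocytes and spermatogonia by -7.30 for Tnp1 and by -2.14 for Chd5 on the log2 scale, by the interaction term of the edgeR fit over both stages (adjusted p = 0.00175 and 0.00729). The call for Chd5 was lost with the replicate block (adjusted p = 0.0179), under library totals (0.0781), with spermatocyte replicates 1 and 4 summed (0.019) and in 11 of the 14 fits that left out a single library, while its size stayed at -2.13 with the block, -2.39 to -1.80 with single libraries left out and, relative to the median over all genes, -2.35 under library totals.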

How the results depend on the processing

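Of the single-gene results under alternatives, 473 kept their direction and side of the threshold, 24 lost the threshold, 4 gained it and 4 changed sign, and of the counts 163 stayed within 1.5 times the reported count and 44 did not. The sign changes were the stage difference of Brdt under library totals (0.31), Tnp1 in spermatogonia without KO replicate 3 (-0.37), and Prm2 (-3.60) and Tnp1 (-1.20) between KO stages without spermatocyte KO replicate 3. For Brdt the scaling moved the median over all genes from 0.195 to 0.899, and relative to it Brdt was at -0.62 with TMM and -0.59 with library totals. The cause of the others, beyond fewer samples, was not tested.

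Genes called numbered 9 in spermatogonia, 6251 for the stage difference and 742 between KO stages. DESeq2 called 514, 9865 and 2337, and a threshold of 0.05 called 56, 11191 and 2043. Without a filter on low counts, 144 were called in spermatogonia. There the split of 8 higher and 1 lower turned to 136 and 378 with DESeq2, 60 and 84 without the filter and 27 and 81 with the replicate block. The replicate block called 108 in spermatogonia and 224 between KO stages, and summing spermatocyte replicates 1 and 4 called 3521 for the stage difference and 346 between KO stages. Leaving out single libraries gave 0 to 18 in spermatogonia, 3793 to 8993 for the stage difference and 112 to 1005 between KO stages. The lowest counts of the last pair came without spermatogonia KO replicate 3, and the highest without spermatocyte WT replicate 3 (8993) and KO replicate 3 (1005). Members called for the stage difference were 2, against 4 by DESeq2, 1 under library totals, 1 with the replicate block, 1 with the replicates summed and 1 to 2 with single libraries left out. Between KO stages the 1 member called became 0 with the replicate block and 0 to 1 with single libraries left out, and in spermatocytes the 7 became 6 to 7. With single libraries left out, the log2 fold change of Tnp1 in spermatogonia ran from -0.37 to 0.42, and between KO stages that of Prm2 ran from -3.60 to 4.998 and that of Tnp1 from -1.20 to 0.98.
Library totals moved the split of calls to 8074 higher and 4880 lower in spermatocytes (6145 and 6740 with TMM), to 4252 and 1733 for the stage difference (2690 and 3561), and to 4541 and 8724 between WT stages (7103 and 5674). In spermatocytes, where the replicate numbers do not pair the libraries (r of 0.0612, 0.197, -0.0327 and 0.116), the replicate block called 11439 genes and 7 members. Low counts limit Prm2 and Tnp2 in spermatogonia and the 5 protamine and transition protein genes in KO spermatocytes, where 0 counts allow up to 3 per library.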

Other observations

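The antisense gene Gm46563 (chr16:10797943-10812726, plus strand), chosen after its values were seen, had 38, 37, 49 and 32 counts in WT and 0, 18, 14 and 5 in KO spermatocytes (log2 fold change -2.67 ± 0.73, edgeR adjusted p = 0.00794). In spermatogonia it had 20, 12 and 16 counts in KO and 10, 7 and 17 in WT, so the groups overlapped. Gm46563 passed the filter on low counts in spermatocytes through its WT libraries, since not all KO libraries reached the level of the filter. That selection favours a difference, so its call supports nothing. Counting was strand-specific. The 25 TE copies on its strand and within its span summed to 140.7 to 175.5 TPM in WT and 14.1 to 24.1 in KO spermatocytes, relative to all TE copies and without a test. The 9 copies on the strand of Prm1 summed to at most 1.46.

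Genes beside the protamine cluster did not move as a block. Within 50000 bases, Clec16a was lower in KO spermatocytes (-1.11, adjusted p = 0.00176), Socs1, a suppressor of cytokine signalling, was higher (1.33, adjusted p = 0.00496), and Rmi2 was at -0.76 (adjusted p = 0.0796). None of the 208 distinct TE copies listed within 5000 bases of the 7 genes belonged to the young L1, IAP and other endogenous retrovirus families looked for. The share of these families over all listed copies was not computed, so nothing is read from their absence.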
